A study of Mus musculus with 9 samples.

Results

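Pax5, Ebf1, Foxo1, Ikzf1, Ikzf3, Irf4, Irf8, Bach2, Pou2af1, and Spib encode 10 transcription factors and cofactors of the B lineage, and were taken by symbol from the 31053 genes of the count table. Their mRNA was followed across 5 stages of B-cell development, across 12 other cell classes, and between 3 strains in femur marrow profiled cell by cell with droplet RNA sequencing. The 9 mice were females of 9 to 10 weeks, bought from The Jackson Laboratory and delivered together, with 1 library per mouse. They were 3 New Zealand Black (NZB), 3 New Zealand White (NZW), and 3 NZBWF1 mice, the F1 cross of these parents. NZBWF1 females develop a lupus-like disease later in life, and the study compared their marrow with that of the parents before overt disease.

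B cells arise in bone marrow through pro-B cells, which rearrange the immunoglobulin heavy chain, dividing pre-B cells, resting pre-B cells, which rearrange the light chain, and immature B cells, which carry a complete receptor and leave for the periphery. Ebf1 and Pax5 start and hold the B-cell program, Foxo1 supports transcription of the recombinase genes, and Ikzf1 (Ikaros) and Ikzf3 (Aiolos) are related zinc finger proteins that act at the pre-B stages. Irf4 and Irf8 are interferon regulatory factors that work with partners of the ETS family, among them Spib, while Bach2 restrains the plasma cell program and Pou2af1 (OBF-1) is a coactivator of the octamer-binding factors. Irf8 and Spib are also known from dendritic cells.

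The members lie on autosomes (GENCODE vM21 on GRCm38, the mm10 build named in the processing notes). Pax5 (ENSMUSG00000014030) spans 44524757 to 44710487 of chromosome 4 on the minus strand, and Bach2 (ENSMUSG00000040270) spans 32238804 to 32586108 of the same chromosome on the plus strand. Ebf1 (ENSMUSG00000057098) spans 44617317 to 45008091 of chromosome 11, on which Ikzf1 (ENSMUSG00000018654) spans 11685003 to 11772926, both on the plus strand, and Ikzf3 (ENSMUSG00000018168) spans 98464902 to 98546031 on the minus strand. Foxo1 (ENSMUSG00000044167) lies at 52268336 to 52353221 of chromosome 3 and Irf4 (ENSMUSG00000021356) at 30749226 to 30766976 of chromosome 13, both on the plus strand. Irf8 (ENSMUSG00000041515) lies at 120736358 to 120756694 of chromosome 8 and Pou2af1 (ENSMUSG00000032053) at 51213708 to 51240080 of chromosome 9, both on the plus strand. Spib (ENSMUSG00000008193) lies at 44525993 to 44532071 of chromosome 7 on the minus strand. 

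Promoter sequences of RefSeq (GRCm38.p6) were matched by symbol for 9 members, in 12 windows of 250 bases before to 50 after a transcription start. The palindromic core of the EBF1 site, CCCNNGGG, was searched on both strands because the Ebf1 protein binds it. It was present in 4 of the 12 windows, against 13.7% of 32817 promoters of the same length. In Foxo1, Ikzf1, and Spib it lay before the start, and in Irf8 after it. The 250 bases before the start are given for the 3 genes with the core there, on the strand of the gene and with the core in capitals. Those of Foxo1 are chr3:52268087-52268336 (plus strand), those of Ikzf1 chr11:11685675-11685924 (plus strand), and those of Spib chr7:44532072-44532321 (minus strand, with 2 overlapping matches).
Foxo1: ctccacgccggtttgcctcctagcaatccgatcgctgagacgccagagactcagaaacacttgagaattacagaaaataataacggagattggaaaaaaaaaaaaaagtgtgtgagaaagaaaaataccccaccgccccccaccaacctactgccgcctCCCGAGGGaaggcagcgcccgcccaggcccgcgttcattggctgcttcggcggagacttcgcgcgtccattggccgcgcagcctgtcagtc
Ikzf1: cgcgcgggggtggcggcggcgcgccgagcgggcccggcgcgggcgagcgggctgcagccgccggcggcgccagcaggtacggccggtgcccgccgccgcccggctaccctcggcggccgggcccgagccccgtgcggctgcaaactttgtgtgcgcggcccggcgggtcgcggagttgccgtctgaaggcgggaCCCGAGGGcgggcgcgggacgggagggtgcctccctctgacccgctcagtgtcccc
Spib: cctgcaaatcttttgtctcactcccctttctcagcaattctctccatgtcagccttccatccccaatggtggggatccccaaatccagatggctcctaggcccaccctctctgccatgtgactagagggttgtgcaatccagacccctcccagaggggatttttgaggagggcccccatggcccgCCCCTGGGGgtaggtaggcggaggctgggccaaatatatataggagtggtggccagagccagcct
The core began 91 bases before the start in Foxo1, 56 in Ikzf1, and 65 in Spib. The octamer ATGCAAAT (1.74% of all promoters), the PU.1 kind of ETS motif GAGGAAG (13.6%), the forkhead motif GTAAACA (3.65%), and the AP-1 motif TGAGTCA (5.2%) were searched on both strands and found in 0 of the 12 windows. The Ikaros motif TGGGAA was in 3 windows, of Ebf1 and Irf8 (25.6%), the ETS and IRF composite GGAANNGAA in 1 of Bach2 (8.25%), and the E-box CAGGTG in 1 of Irf8 (20.2%). A match is a run of letters and not a measured binding site.

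Of 68444 barcodes in the filtered matrix, 39051 passed the limits of 1000 UMIs (unique molecular identifiers, each standing for 1 captured mRNA), 500 genes, and 10% mitochondrial UMIs. The mice kept 2455 to 5684 cells each, with medians of 2182.5 to 2536.5 UMIs. Cells were placed by the UMIs of marker genes, with no member among the markers, so that each name below stands for a gate on mRNA and not for sorted cells. B-lineage cells (at least 5 UMIs of 7 genes, among them Cd79a and Vpreb3) were called pro-B with Dntt, dividing pre-B with at least 5 UMIs of 10 division genes, resting pre-B with Rag1 or Rag2 or without Ms4a1, immature B with Ms4a1, and mature B with at least 2 UMIs of Ighd, Fcmr, and Fcer2a. The immature gate allowed at most 1 UMI of these mature markers. These gates held 726, 2346, 1178, 1089, and 1111 cells. A Rag1 or Rag2 UMI was seen in a mean of 24.8% (NZB), 28.1% (NZW), and 40.4% (NZBWF1) of the resting pre-B gate, whose cells had a median of 1177.5 UMIs, so that most of them entered without one. A total of 6429 barcodes that passed several gates were left out. NZB mice had few cells in the gates, with 14 to 36 pro-B, 19 to 30 resting pre-B, and 16 to 55 mature B cells per mouse, and their values rest on the fewest UMIs. Of the barcode sequences, 557 occurred in more than 1 library. Free RNA, read from droplets with 10 to 99 UMIs, came to 12 to 17 UMIs per droplet, or 0.485% to 0.776% of a cell's median. Neutrophil genes were found in the resting pre-B and immature B gates. Summed S100a8 and S100a9 had 4678 to 36020 counts per 1000000 UMIs (CPM) in resting pre-B and 836.1 to 21930 in immature B, against 682.2 to 2238 in dividing pre-B and 610.4 to 10980 in mature B. Their part in the differences between stages was not tested, beyond an alternative with only B-lineage cells that had 0 UMIs of the neutrophil, monocyte, and erythroid gate markers.

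Levels are CPM of the UMIs summed over the cells of a gate in each mouse, given as the lowest, median, and highest of the 9 mice, and a gate's level joins all cells in it. Neighbouring stages were compared with the edgeR quasi-likelihood test with the mouse as a block, and log2 fold changes are given with their standard error (SE) and the Benjamini-Hochberg adjusted p over 5859 genes. All 10 members passed the filter on low counts. A 3' count favours no gene by its length, but levels of different genes are not compared, since capture differs between them. Over the 5 steps 33 of the 50 member tests were called at an adjusted p under 0.05, 18 higher and 15 lower.

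**Figure D1:**
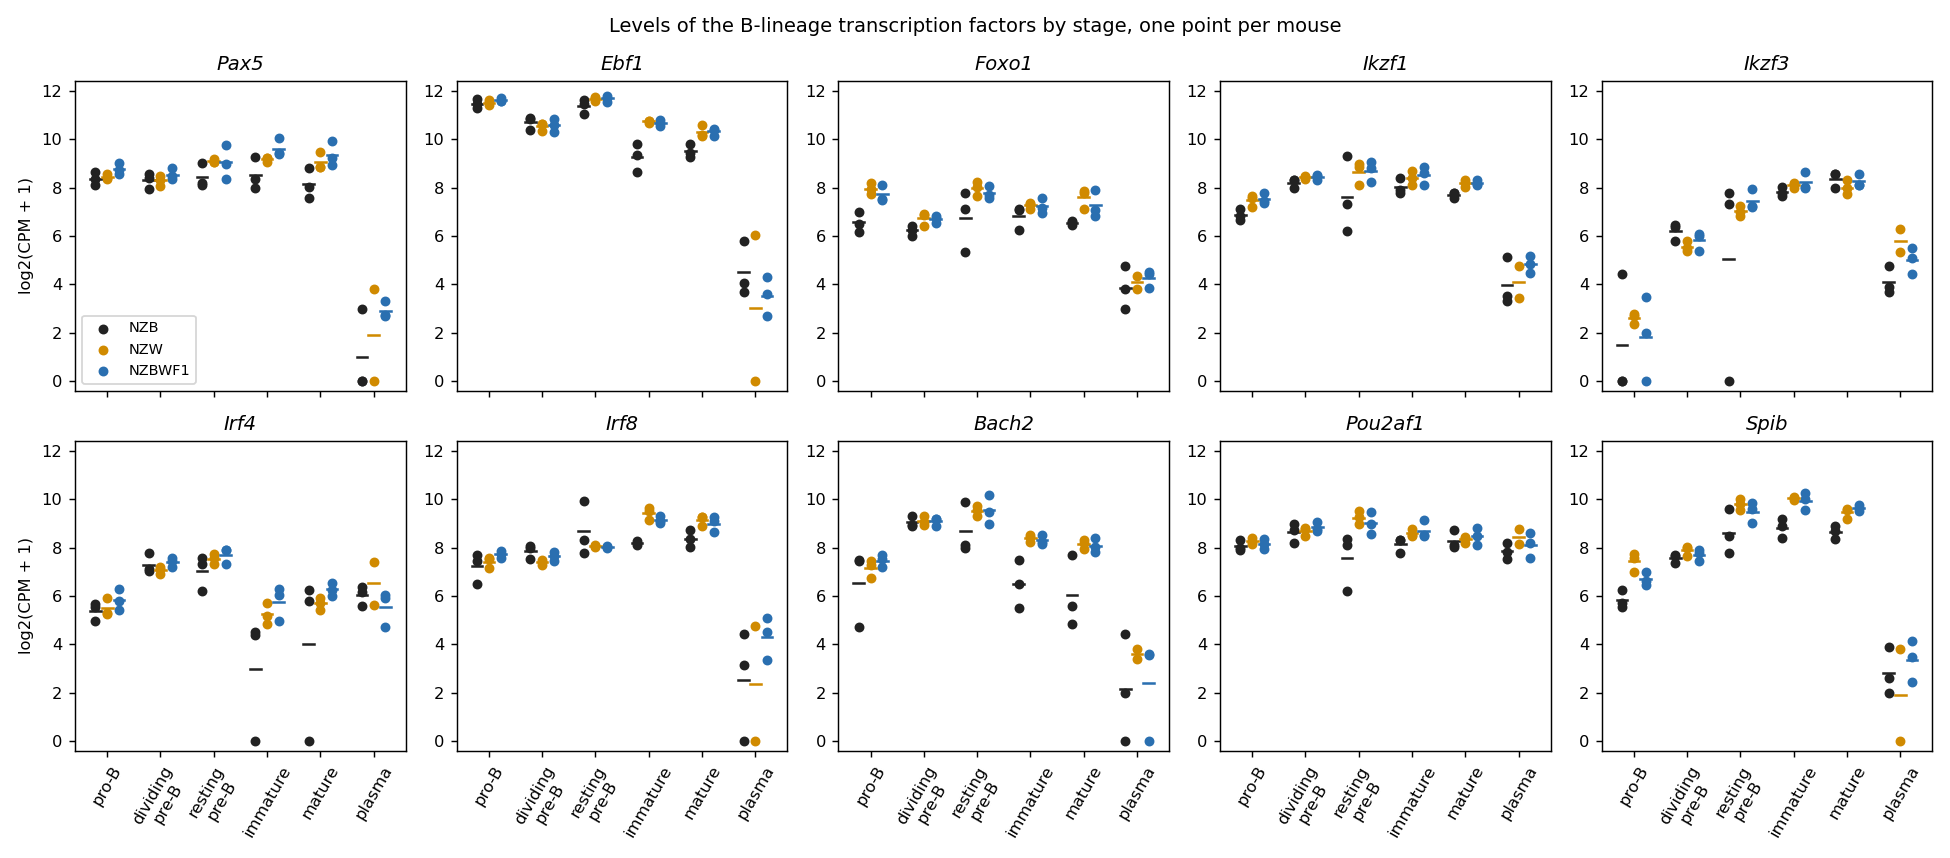
Level of each member in the 5 B-lineage stages and in plasma cells, as log2(CPM + 1) on the vertical axis, with 1 point per mouse coloured by strain and horizontal bars at the mean of the log values of each strain. Ikzf3 climbs from a median of 4.193 CPM in pro-B to 276.4 CPM in mature B, and among the 5 B-lineage stages Irf4 has its highest medians, 144.4 and 190.8 CPM, in the pre-B ones.

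Ebf1, the factor that opens B-lineage chromatin, was measured at 2479, 3050, and 3293 CPM in pro-B, at 1243, 1575, and 1883 CPM in dividing pre-B, at 2108, 3107, and 3540 CPM in resting pre-B, at 396.0, 1631, and 1750 CPM in immature B, and at 610.4, 1134, and 1519 CPM in mature B. All 9 dividing pre-B values lay below all values of both neighbouring stages. Ebf1 fell from pro-B to dividing pre-B (log2 fold change -0.75, SE 0.14, adjusted p = 1.84e-05), rose to resting pre-B (0.83, SE 0.14, adjusted p = 1.23e-06), and fell to immature B (-1.05, SE 0.14, adjusted p = 6.86e-08).

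Pax5, which holds B-cell identity by repressing genes of other lineages, moved less. It had 270.9, 373.5, and 516.9 CPM in pro-B, 244.2, 336.3, and 444.4 CPM in dividing pre-B, 275.7, 517.9, and 870.0 CPM in resting pre-B, 251.1, 600.8, and 1052 CPM in immature B, and 187.8, 465.7, and 955.6 CPM in mature B. The ranges of all stages overlapped. Up to mature B, only the steps to resting pre-B (0.49, SE 0.11, adjusted p = 7.36e-05) and to immature B (0.35, SE 0.12, adjusted p = 0.0177) were called. The former was lost with limits of 2000 UMIs and 1000 genes, where its sign turned (-0.05, adjusted p = 0.983), and in NZB mice alone (0.15, adjusted p = 0.826). The latter was lost, among other settings, when any 1 of the 3 NZBWF1 mice was left out (0.25 to 0.33, adjusted p 0.0524 to 0.133), with DESeq2 (0.37, adjusted p = 0.0593), and without the mouse as a block (0.33, adjusted p = 0.105).

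Foxo1, the forkhead factor downstream of PI3K signals, followed the course of Ebf1 up to the resting pre-B stage. Its levels were 71.35, 185.8, and 290.1 CPM in pro-B, 63.32, 91.02, and 117.5 CPM in dividing pre-B, 39.38, 205.1, and 301.0 CPM in resting pre-B, 75.33, 138.2, and 189.1 CPM in immature B, and 86.31, 134.7, and 239.9 CPM in mature B. The lowest pro-B and resting pre-B values belonged to NZB mice. Foxo1 fell in dividing pre-B (-0.92, SE 0.12, adjusted p = 3.56e-11), rose in resting pre-B (1.02, SE 0.13, adjusted p = 3.95e-13), and fell in immature B (-0.48, SE 0.15, adjusted p = 0.00806). The last of these was lost without NZW 3 (-0.36, adjusted p = 0.0952) and in cells free of myeloid and erythroid markers (-0.39, adjusted p = 0.0921).

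Ikzf1 rose once, from 100.2, 162.3, and 215.6 CPM in pro-B to 253.3, 324.9, and 365.5 CPM in dividing pre-B, with no overlap of the mice (1.09, SE 0.12, adjusted p = 3.20e-15). In the later stages its medians were 448.2, 333.6, and 270.8 CPM, and no further step up to mature B was called.

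Ikzf3 was nearly absent from pro-B cells, with 11 UMIs in all mice together and 0, 4.193, and 20.39 CPM. It was called higher at each of the next 3 steps. It had 40.96, 54.27, and 86.09 CPM in dividing pre-B (3.20, SE 0.32, adjusted p = 1.17e-17), 0, 147.7, and 246.2 CPM in resting pre-B (1.39, SE 0.15, adjusted p = 9.69e-16), and 200.9, 255.1, and 401.9 CPM in immature B (0.98, SE 0.14, adjusted p = 3.08e-09), and stayed at 212.1, 276.4, and 379.2 CPM in mature B. The 0 of resting pre-B was NZB 2, a sum of 20 cells. In NZB mice alone all 3 calls were lost (2.6, 0.81, and 0.93, adjusted p 0.0543, 0.371, and 0.272), and with limits of 2000 UMIs and 1000 genes the latter 2 (0.28 and 1.74, adjusted p 0.895 and 0.233). The share of cells with an Ikzf3 UMI, after thinning each cell to 1000 UMIs, was 0.374% in pro-B, 5.34% in dividing pre-B, 12.8% in resting pre-B, 22.7% in immature B, and 25.2% in mature B, while neutrophils, which gave the background, had 0.0935%.

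Among the 5 stages Irf4 had its highest medians in the pre-B ones. Its levels were 30.58, 45.15, and 78.13 CPM in pro-B, 119.5, 144.4, and 216.5 CPM in dividing pre-B, 72.67, 190.8, and 240.6 CPM in resting pre-B, 0, 30.63, and 76.24 CPM in immature B, and 0, 60.05, and 92.85 CPM in mature B. The pro-B and dividing pre-B mice did not overlap. Irf4 rose into dividing pre-B (1.76, SE 0.16, adjusted p = 1.29e-19) and fell into immature B (-2.02, SE 0.20, adjusted p = 2.33e-18).

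Irf8 rose late. It had 90.3, 187.2, and 230.6 CPM in pro-B, 155.6, 180.9, and 262.9 CPM in dividing pre-B, 218.1, 263.4, and 981.1 CPM in resting pre-B, 276.2, 540.3, and 784.5 CPM in immature B, and 261.3, 467.4, and 621.9 CPM in mature B. The 981.1 CPM of resting pre-B was again NZB 2. In that strain the markers of plasmacytoid dendritic cells, which carry the most Irf8, reached up to 145.3 CPM in this gate, against 24.16 to 41.6 CPM in NZW, and their part in it was not tested. The step to immature B was called (1.14, SE 0.18, adjusted p = 1.33e-06), as was the smaller one to resting pre-B (0.43, SE 0.17, adjusted p = 0.0322), which was lost without NZW 2 or NZW 3 (0.41 and 0.44, adjusted p 0.0567 and 0.0568) and where Rag1 or Rag2 was required (0.37, adjusted p = 0.0891). In NZB mice alone, Irf8 differed by -0.47 between immature and resting pre-B cells (adjusted p = 0.495).

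Bach2, the repressor of plasma cell genes, had 25.04, 172.6, and 204.3 CPM in pro-B and 470.3, 535.9, and 637.9 CPM in dividing pre-B, without overlap (1.96, SE 0.19, adjusted p = 2.07e-11). It was at 254.4, 706.5, and 1144 CPM in resting pre-B and fell to 44.0, 295.8, and 367.4 CPM in immature B (-1.19, SE 0.19, adjusted p = 1.82e-06). Mature B cells had 27.5, 243.5, and 332.7 CPM.

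Pou2af1 was called in 2 steps up to mature B. It rose from 234.4, 283.2, and 339.4 CPM in pro-B to 290.6, 429.8, and 536.8 CPM in dividing pre-B (0.70, SE 0.11, adjusted p = 2.66e-08). Its medians were 498.9 CPM in resting pre-B, 358.7 CPM in immature B, and 334.6 CPM in mature B, and the step to immature B (-0.34, SE 0.12, adjusted p = 0.025) was lost without NZW 1, NZW 3, or NZBWF1 3 (-0.32 to -0.22, adjusted p 0.069 to 0.235).

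Spib, the ETS factor closest to PU.1, rose in all 3 steps up to immature B. It had 45.15, 97.75, and 214.9 CPM in pro-B, 162.8, 204.9, and 256.0 CPM in dividing pre-B (0.94, SE 0.14, adjusted p = 1.54e-08), 218.0, 763.2, and 1031 CPM in resting pre-B (1.67, SE 0.11, adjusted p = 4.48e-28), and 339.0, 1006, and 1218 CPM in immature B (0.38, SE 0.11, adjusted p = 0.00579). The last step was lost with DESeq2 (0.39, adjusted p = 0.0558) and in NZW mice alone (0.28, adjusted p = 0.0922). Mature B cells had 330.0, 731.2, and 864.5 CPM. Against pro-B cells with fewer than 2 UMIs of division genes, dividing pre-B cells differed by -0.11 (adjusted p = 0.642). In the mean of the strains, 36.1% to 43.1% of pro-B cells had at least 5 UMIs of division genes.

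Some further calls of these stages were lost with stricter limits per cell or in 1 strain alone. Under the stricter limits several estimates shrank as well, and that of Spib into immature B changed sign. The cause was not tested. With limits of 2000 UMIs and 1000 genes, the steps of Ebf1 (0.47, adjusted p = 0.0577) and Foxo1 (1.08, adjusted p = 0.0999) to resting pre-B were lost, as were those of Foxo1 (-0.29), Irf4 (-1.12), Irf8 (0.17), Bach2 (-0.71), Pou2af1 (-0.38), and Spib (-0.23) to immature B (adjusted p 0.396 to 0.906). In NZB mice alone, both called steps of Bach2 (1.97 and -2.04, adjusted p 0.109 and 0.0961) and of Pou2af1 (0.62 and 0.57, adjusted p 0.352 and 0.44), the step of Spib to immature B (0.19, adjusted p = 0.787), and all 3 of Foxo1 were lost. In NZBWF1 mice alone, the step of Irf8 to resting pre-B was lost (0.34, adjusted p = 0.0988). So were those of Foxo1 (-0.49, adjusted p = 0.16) and Pou2af1 (-0.29, adjusted p = 0.307) to immature B.

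By step, 8 of the 10 members were called between pro-B and dividing pre-B, when 32.0% of all genes were called. Between dividing and resting pre-B 6 members were called, all of them higher, against 58.3% of all genes, a share near that of the table. Between resting pre-B and immature B 9 were called, 4 higher and 5 lower, against 24.3%. Between immature and mature B 0 were called by edgeR and 0 by DESeq2, 3 had an unadjusted p under 0.05 (Spib, Irf4, and Ikzf1), and 1.91% of all genes were called. The difference nearest to the threshold was that of Spib (-0.37, SE 0.11, adjusted p = 0.0512). The immature and mature gates are split at 2 UMIs of Ighd, Fcmr, and Fcer2a, in cells with median depths of 1267 and 1337 UMIs. Like cells can therefore fall in both gates. Over the 10 members the median log2 fold change was 0.82, 0.46, -0.24, and -0.14 at these steps, against 0.09, 0, 0.01, and 0 over all genes.

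**Figure D2:**
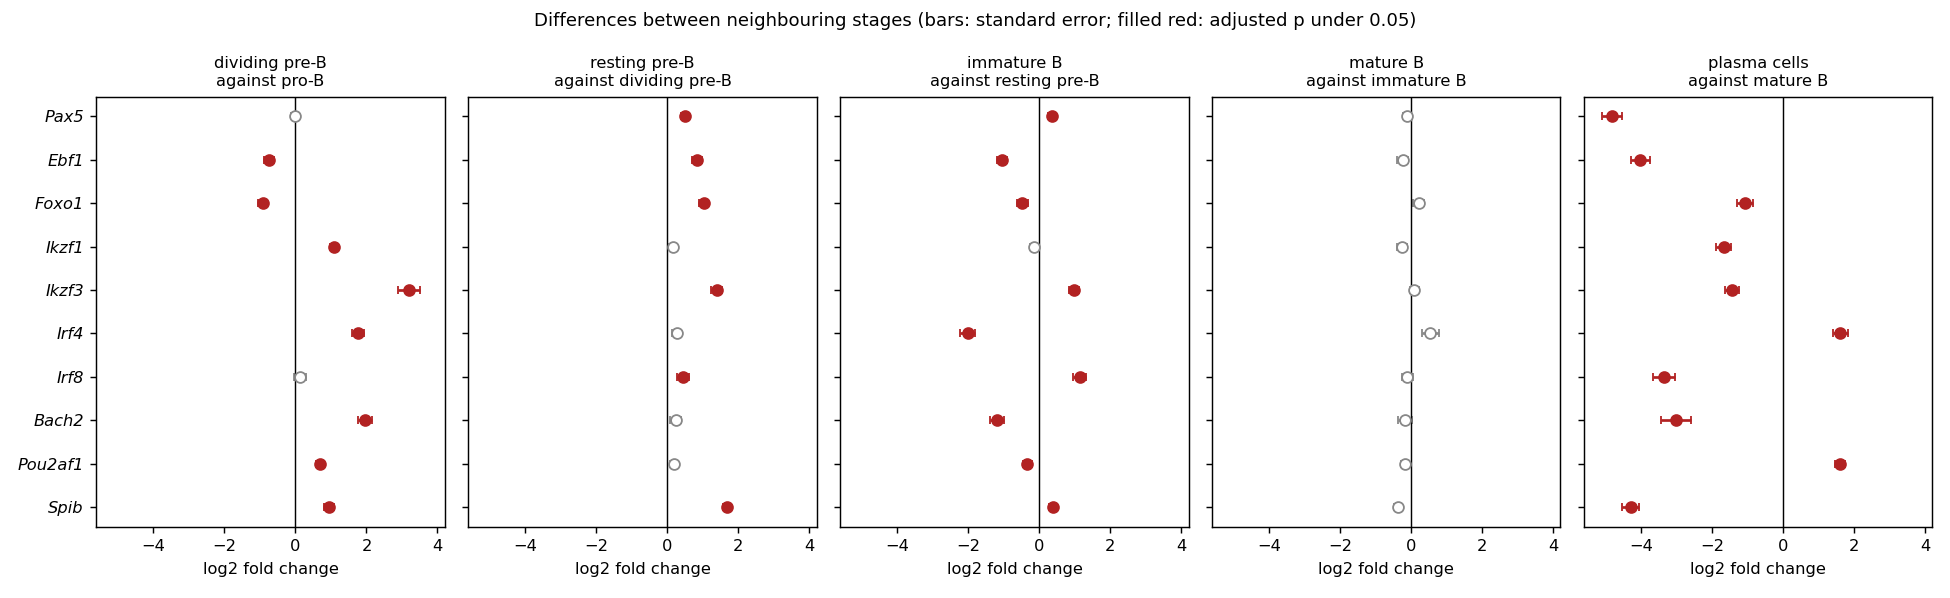
Log2 fold change of each member on the horizontal axis, with 1 panel for each of the 5 steps between neighbouring stages, bars of 1 SE, and points filled red where the adjusted p is under 0.05. The step from immature to mature B holds no filled point, and Ikzf3 and Irf4 give the largest steps before plasma cells (3.20 and -2.02).

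Genes around these factors were counted from lists named with earlier results of the data known. Of 14 genes described as targets of Pax5 or Ebf1, all tested, 8 rose and 4 fell into dividing pre-B (median log2 fold change 0.99, against 0.09 over all genes). Blk, a kinase of receptor signalling, rose (2.40), while the adaptor Blnk fell (-1.26). In resting pre-B 10 rose and 1 fell (median 0.87, against 0), and in immature B 10 rose and 3 fell (median 0.57, against 0.01), with Cd22 (2.33) and the complement receptor Cr2 (3.77) among those that rose. Of 9 genes described as targets of Foxo1, 4 rose and 3 fell into dividing pre-B (median -0.02). In resting pre-B, where 58.3% of all genes were called, 8 rose and 0 fell (median 1.11, against 0), led by the antiproliferative gene Btg1 (2.25) and Klf2 (1.78). Rag1 and Rag2 belong to this list but also to the gates, and Klf2, Lef1, Pou2f2, Prdm1, and Xbp1 each stand in more than 1 list. Of 24 other transcription factors 17 were tested. Bcl11a fell (-1.60) and Lef1 fell (-1.81) into dividing pre-B, where 4 of the list rose and 8 fell (median -0.26, against 0.09 over all genes) and 32.0% of all genes were called. Myb fell (-2.41) and Pou2f2 (Oct-2), the partner of Pou2af1, rose (1.80) into immature B, where 7 rose and 4 fell (median 0.40, against 0.01) and 24.3% of all genes were called. Mef2c (0.49) and Id3 (0.46) were the 2 that rose into mature B. Of 9 genes known to be held down by Pax5, among them Flt3, Csf1r, and Jchain, which are markers of other gates, 4 passed the filter. Into dividing pre-B 3 of them fell, among them Notch1 (-0.88), and into resting pre-B all 4 rose, among them Notch1 (1.09) and the adhesion gene Emb (1.59), at a step where 58.3% of all genes were called (list median 1.22, against 0).

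Plasma cells secrete antibody after the B-cell program has been shut down by the repressor Prdm1. The plasma cell gate held 293 cells, with 22 to 49 in NZB, 6 to 11 in NZW, and 15 to 92 in NZBWF1, and NZW 1 with 6 cells was left out. All 10 members differed from mature B cells, 2 higher and 8 lower, when 48.3% of all genes were called. Pax5 fell to 0, 5.514, and 13.01 CPM (-4.82, SE 0.27, adjusted p = 1.53e-37), Ebf1 to 0, 13.63, and 65.03 CPM (-4.02, SE 0.26, adjusted p = 1.09e-18), and Spib to 0, 7.686, and 16.41 CPM (-4.29, SE 0.24, adjusted p = 1.58e-35). Every plasma cell value of these genes lay below every mature B value. Irf8 (-3.37, SE 0.31) and Bach2 (-3.03, SE 0.42) fell as well, to medians of 14.91 and 10.3 CPM, and Ikzf1 (-1.68, SE 0.21), Ikzf3 (-1.45, SE 0.19), and Foxo1 (-1.07, SE 0.23) were called lower too. The call of Foxo1 was lost in NZB alone (-0.55, adjusted p = 0.501) and with limits of 2000 UMIs and 1000 genes (-0.54, adjusted p = 0.156), that of Ikzf3 in NZW alone (-0.73, adjusted p = 0.274), and that of Bach2 in NZB alone (-2.42, adjusted p = 0.158).

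Irf4, which plasma cells require, and Pou2af1 rose (1.61, SE 0.21, adjusted p = 1.33e-11, and 1.60, SE 0.13, adjusted p = 2.26e-26). Their share of all UMIs did not show it. Irf4 had 25.01, 62.04, and 169.1 CPM in plasma cells and Pou2af1 181.4, 286.4, and 429.2 CPM, both overlapping mature B cells. Immunoglobulin genes and Jchain (388 genes) took 51.3% to 74.0% of the UMIs of plasma cells and 1.85% to 2.5% of those of mature B cells, and the scaling of edgeR (trimmed mean of M values, TMM) corrects for it. Without these genes, Irf4 reached 96.06, 195.1, and 347.5 CPM against a lowest value of 0 and a median of 61.37 CPM in mature B cells, and Pou2af1 597.8, 892.5, and 1230 CPM against 263.8, 341.9, and 463.1 CPM, with no overlap for either gene. Among the other factors Xbp1, the factor of the secretory apparatus, rose by 5.38, and Klf2 (-4.63) and Bcl11a (-4.63) fell. Of the 14 targets of Pax5 or Ebf1, 13 fell and 0 rose (median -2.41, against -0.17 over all genes).

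Outside the B lineage, each of 9 classes with enough cells was compared with the sum of the 5 stages, with the mouse as a block and adjusted p over 9547 genes. The UMIs of the stages were added, so dividing pre-B cells, which had the most UMIs, weighed most in this sum. Of 90 member tests 82 were called, 76 higher in B-lineage cells and 6 lower. The called members numbered 9 against plasma cells (46.7% of all genes called), 9 against plasmacytoid dendritic cells (59.0%), 8 against T cells (34.6%), 8 against NK cells (38.4%), 10 against stem and early progenitor cells (42.6%), 9 against granulocyte-monocyte precursors (67.7%), 10 against monocytes (71.1%), 9 against neutrophils (79.9%), and 10 against erythroid cells (76.4%).

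**Figure D3:**
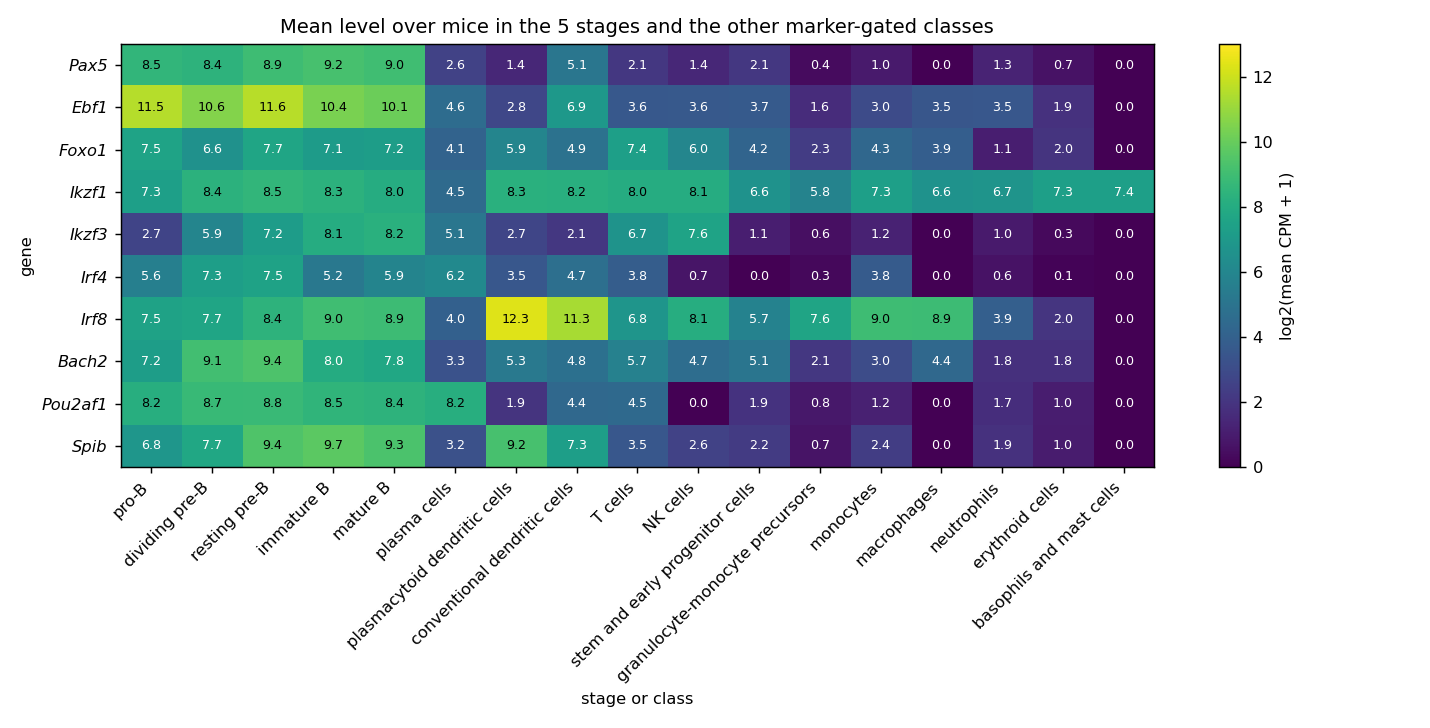
Heat map of the members (rows) in the 5 B-lineage stages and 12 other classes (columns), coloured by log2(mean CPM + 1) over the mice with at least 10 cells. Irf8 is highest in plasmacytoid dendritic cells, with a mean of 5200 CPM, and Pax5 and Ebf1 are low outside the B lineage, least so in conventional dendritic cells.

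Pax5, Ebf1, and, apart from plasma cells, Pou2af1 were near 0 in most other classes. Pax5 came to 8 UMIs in all plasmacytoid dendritic cells, 3 in T cells, 1 in NK cells, and 2 in granulocyte-monocyte precursors. In 11642 neutrophils it had 46 UMIs, or a median of 1.297 CPM, and Ebf1 had 338 UMIs, or 10.77 CPM. A UMI of Pax5 was seen in 0.155% of thinned neutrophils (0.351% before thinning, median depth 2311 UMIs) against 33.5% of pro-B cells (54.2% before thinning, median depth 1851 UMIs). Ebf1 was seen in 0.807% and 91.6%. Free RNA itself held 29.82 to 188.3 CPM of Pax5 and 79.17 to 513.8 CPM of Ebf1, and shares of these genes at the level of neutrophils are read as background. In conventional dendritic cells, which were too few to be tested, Pax5 had 6 UMIs and Ebf1 34.82, 77.48, and 249.2 CPM. Irf4 had medians of 13.42 CPM in monocytes and 11.6 CPM in plasmacytoid dendritic cells. Bach2 was lower than in the B lineage in all 9 classes tested, with medians of 45.5 CPM in T cells, 40.67 CPM in plasmacytoid dendritic cells, 26.23 CPM in NK cells, and 2.631 CPM in neutrophils. In NK cells Pou2af1 had 0 UMIs of 1014806, so that with a floor of 3 UMIs over the class B-lineage cells were at least 138-fold higher. Irf4 had 0 UMIs of 1265933 in stem and early progenitor cells, which made B-lineage cells at least 52.1-fold higher. Plasma cells held more Irf4 (-0.78, SE 0.23, adjusted p = 0.00386) and Pou2af1 (-1.28, SE 0.13, adjusted p = 4.23e-15) than the B lineage together. The former call was lost without NZBWF1 2 (-0.71, adjusted p = 0.0613).

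Irf8, Spib, Ikzf1, Ikzf3, and Foxo1 were also measured in other cells. Irf8, which plasmacytoid and conventional dendritic cells need for their development, had 4852, 5115, and 6053 CPM in plasmacytoid dendritic cells. All 9 mice lay above every B-lineage value (log2 fold change of B lineage against plasmacytoid dendritic cells -4.23, SE 0.22, adjusted p = 3.85e-28). After thinning, 98.1% of plasmacytoid dendritic cells had an Irf8 UMI and 44.0% a Spib UMI, against 0.89% and 0.25% of neutrophils. In conventional dendritic cells (103 cells, sums of at least 10 cells in 6 mice, not tested) it had 1838, 2198, and 4299 CPM. In monocytes it had 337.3, 516.5, and 666.8 CPM, more than in the 5 stages together (-0.93, SE 0.21, adjusted p = 5.07e-05). The monocyte range overlapped those of immature B (276.2 to 784.5 CPM) and mature B cells (261.3 to 621.9 CPM). Spib had 447.3, 563.8, and 748.8 CPM in plasmacytoid dendritic cells, higher than in the 5 stages together (-0.72, SE 0.13, adjusted p = 1.94e-06) but within the range of resting pre-B and immature B cells. This call was lost with limits of 500 UMIs and 250 genes (-0.05, adjusted p = 0.742) and in B-lineage cells free of myeloid and erythroid markers (-0.30, adjusted p = 0.0656).

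Ikzf1 was measured in every class. It had 247.6, 290.2, and 378.9 CPM in plasmacytoid dendritic cells, 182.0, 255.2, and 389.5 CPM in T cells, and 87.43, 104.2, and 125.8 CPM in neutrophils. Its difference from neutrophils, 0.13 (SE 0.08, adjusted p = 0.13), was not called after TMM scaling, although by CPM all 9 neutrophil values lay below the 253.3 to 365.5 CPM of dividing pre-B cells. The call of Ikzf1 against T cells (0.32, adjusted p = 0.0399) was lost without any 1 of 5 mice, NZB 1, NZW 1, NZW 2, NZBWF1 2, or NZBWF1 3 (0.28 to 0.33, adjusted p 0.0553 to 0.103), and with the DESeq2 size factors (0.07, adjusted p = 0.734). Ikzf3 had 94.86, 191.3, and 244.2 CPM in NK cells, more than in the B lineage as a whole (-0.63, SE 0.16, adjusted p = 6.64e-04), though not more than in immature or mature B cells, whose medians were 255.1 and 276.4 CPM. This call was lost with limits of 500 UMIs and 250 genes (-0.26, adjusted p = 0.112) and in B-lineage cells free of myeloid and erythroid markers (-0.31, adjusted p = 0.143). Foxo1 had 80.59, 137.8, and 307.4 CPM in T cells, which overlapped each B-lineage stage (-0.21, SE 0.19, adjusted p = 0.436).

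The genes whose pattern over the 5 stages and 12 classes was most like that of a member were found by Pearson correlation of log2(CPM + 1), averaged over mice, among 7018 genes with at least 50 CPM in any of them. The points share libraries, and r is a description. Pax5 and Ebf1 were each other's nearest gene (r = 0.978), followed by Jhy for Pax5 (0.966) and Vpreb3, a gate marker, for Ebf1 (0.966). Irf4 was nearest to Pou2af1 (0.917) and Ighm (0.865). The nearest of the others were Fbxl12 for Foxo1 (0.935), Ppp4r3b for Ikzf1 (0.912), Ppp3cc for Ikzf3 (0.916), Slc12a9 for Irf8 (0.939), Sbk1 for Bach2 (0.956), 2010007H06Rik for Pou2af1 (0.939), and Ppm1e (0.95) and the kinase gene Blk (0.943) for Spib.

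The strains were compared within each stage and class by edgeR, with 3 mice per strain and no block, for the members that passed the filter there (79 member tests in 14 stages and classes). NZB differed from NZW in 17 of the 79 tests, while the share of all genes called ran from 1.06% (resting pre-B) to 20.3% (monocytes). All 17 were lower in NZB, while over all genes the calls went both ways, with 138 higher and 85 lower in immature B cells and 39 higher and 60 lower in mature B cells. Irf8, Spib, Bach2, and Ebf1 in immature and mature B cells gave 8 of the 17.

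**Figure D4:**
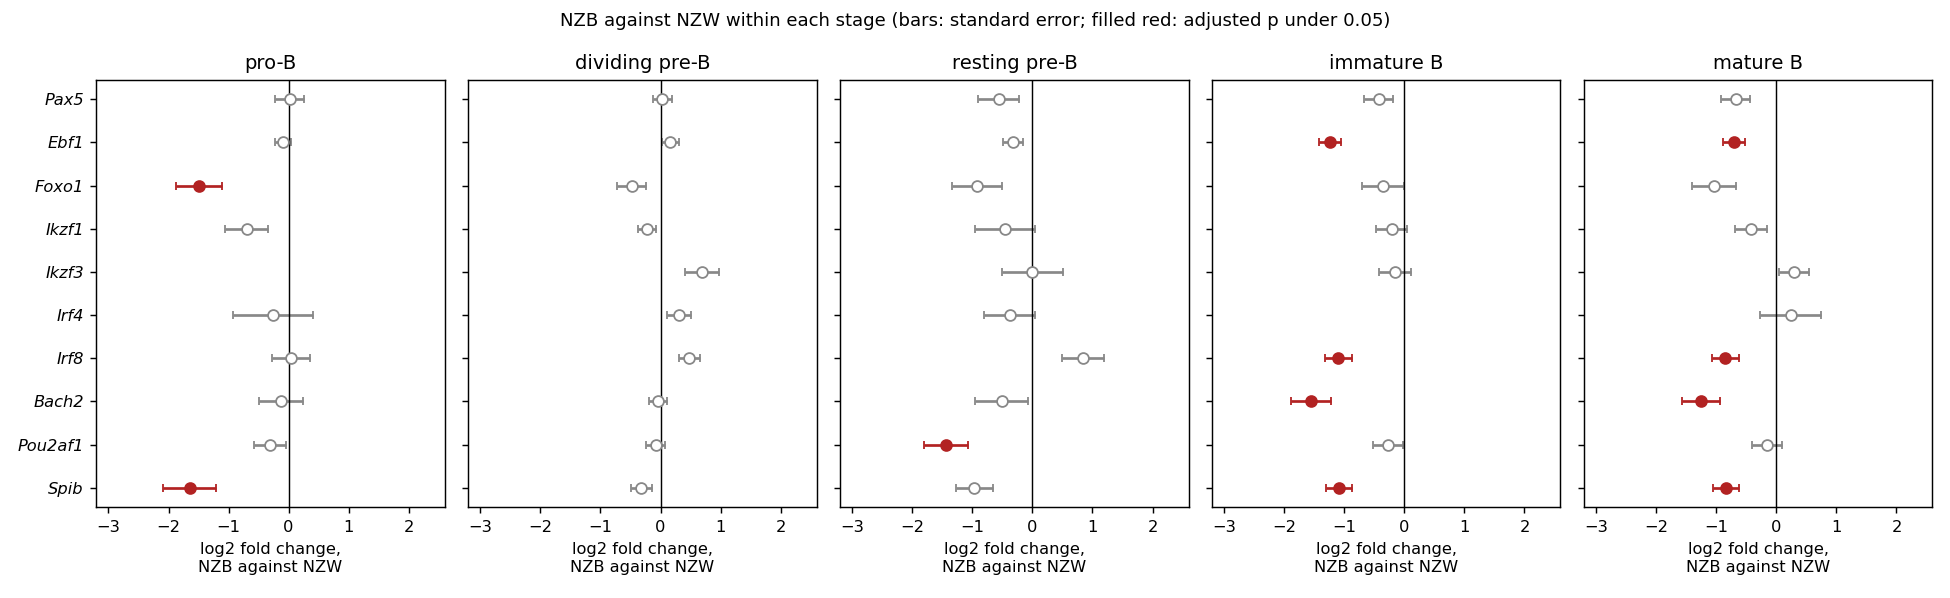
Log2 fold change of NZB against NZW (horizontal axis) for each member tested in the 5 B-lineage stages (panels), with 3 mice per strain, bars of 1 SE, and filled red points where the adjusted p is under 0.05. Ebf1, Irf8, Bach2, and Spib are filled on the negative side in both immature and mature B cells, from -1.56 to -0.71, and dividing pre-B cells hold no filled point.

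In immature B cells 4 of 9 tested members were called, against 6.84% of all genes. Ebf1 had 883.0, 396.0, and 640.3 CPM in NZB 1 to 3, 1717, 1733, and 1636 CPM in NZW, and 1750, 1478, and 1631 CPM in NZBWF1 (NZB against NZW -1.24, SE 0.19, adjusted p = 8.62e-06). The NZB mice lay below all others, and the NZBWF1 range overlapped that of NZW. Irf8 had 294.3, 308.0, and 276.2 CPM in NZB, 784.5, 557.6, and 732.5 CPM in NZW, and 632.4, 520.8, and 540.3 CPM in NZBWF1 (-1.10, SE 0.22, adjusted p = 7.52e-04). Bach2 had 176.6, 44.0, and 87.88 CPM, 295.8, 367.4, and 350.1 CPM, and 366.4, 283.4, and 298.3 CPM in the same order (-1.56, SE 0.33, adjusted p = 0.0012). The NZB values stand on 9, 2, and 7 UMIs. Spib had 470.9, 572.1, and 339.0 CPM in NZB, 1006, 1076, and 1069 CPM in NZW, and 1218, 758.2, and 1014 CPM in NZBWF1 (-1.09, SE 0.21, adjusted p = 3.10e-04). The other 5 members tested, among them Pax5 (-0.43, SE 0.24, adjusted p = 0.388), were not called. These 4 calls held without any single mouse, while that of Ebf1 was lost with limits of 500 UMIs and 250 genes (-0.76, adjusted p = 0.124) and that of Irf8 with doubled marker minimums (-0.52, adjusted p = 0.533).

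In mature B cells the same 4 genes were called, of 10 tested, against 2.45% of all genes. Ebf1 ranged from 610.4 to 895.5 CPM in NZB, from 1117 to 1519 CPM in NZW, and from 1134 to 1370 CPM in NZBWF1 (-0.71, SE 0.18, adjusted p = 0.00849). Irf8 ranged from 261.3 to 422.6 CPM, from 467.4 to 621.9 CPM, and from 396.9 to 611.0 CPM in the same order (-0.85, SE 0.23, adjusted p = 0.0176). Bach2 had 205.0, 46.95, and 27.5 CPM in the NZB mice (19, 1, and 2 UMIs) and 243.5 to 320.3 CPM in NZW (-1.26, SE 0.32, adjusted p = 0.00861), and Spib 330.0 to 469.5 CPM in NZB and 584.8 to 774.7 CPM in NZW (-0.84, SE 0.22, adjusted p = 0.00869). Unlike in immature B cells, each of these calls was lost without some mice. Ebf1 was lost without NZB 2, NZB 3, or NZW 2 (-0.68 to -0.56, adjusted p 0.0649 to 0.151), Irf8 without NZB 1, NZB 3, NZW 1, or NZW 3 (-0.91 to -0.76, adjusted p 0.0826 to 0.18), Bach2 without NZB 2 or NZB 3 (-1.09 and -0.74, adjusted p 0.107 and 0.427), and Spib without NZB 1, NZB 3, NZW 2, or NZW 3 (-0.93 to -0.77, adjusted p 0.0528 to 0.115). With limits of 500 UMIs and 250 genes Bach2 (-0.64, adjusted p = 0.23) and Irf8 (-0.49, adjusted p = 0.0791) were lost, as they were in cells free of myeloid and erythroid markers (-1.03 and -0.86, adjusted p 0.141 and 0.0791). Irf8 was also lost with doubled marker minimums (-0.84, adjusted p = 0.0568), and Ebf1 and Bach2 with at least 20 cells per sum (-0.59 and -1.09, adjusted p 0.0649 and 0.107).

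Other genes of these gates differed between the parents too. Mzb1, a marker of plasma, marginal zone, and B1 cells, had 726.0 to 858.1 CPM in immature B cells of NZB and 308.6 to 393.3 CPM in NZW, and in mature B cells 845.2 to 1045 and 287.4 to 391.6 CPM. H2-Aa, a class II gene that rises as B cells mature, had 2178 to 3490 CPM in immature B cells of NZB and 764.8 to 1174 CPM in NZW. The 7 B-lineage gate markers together had 6799 to 9085 CPM in immature B cells of NZB and 10820 to 12270 CPM in NZW, and 6433 to 7769 against 8986 to 9898 CPM in mature B cells. They were thus lower in NZB in both gates, with no overlap, and their part in the strain differences was not tested. The neutrophil gate markers of immature B cells overlapped, with 308.0 to 640.3 CPM in NZB and 475.8 to 921.4 CPM in NZW. A different make-up of the gate and a different level per cell cannot be told apart from these sums. Of the 14 targets of Pax5 or Ebf1, 11 were tested in immature B cells and 1 fell in NZB, Cd72 (-1.65, adjusted p = 2.35e-05), a coreceptor of the B-cell receptor (list median -0.23, against -0.03 over all genes). In mature B cells 0 of 12 were called. Of all genes, 6.84% were called in immature B cells and 2.45% in mature B cells. Of the 24 other factors, 15 were tested in each gate, and 1 was higher and 2 were lower in NZB in each. Zbtb20 was the higher one in both (1.18 and 1.37), Sox4 (-2.19) and Tcf3 (-1.07) were lower in immature B cells, and Xbp1 (-2.04) and Ets1 (-0.96) in mature B cells.

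Before the immature stage, 3 calls were made. In pro-B cells Foxo1 had 125.2, 90.3, and 71.35 CPM in NZB and 209.7 to 290.1 CPM in NZW (-1.49, SE 0.38, adjusted p = 0.0174), and Spib 75.12, 45.15, and 50.96 CPM and 125.8 to 214.9 CPM (-1.65, SE 0.44, adjusted p = 0.035), against 1.20% of all genes. The NZB values stand on 2 to 7 UMIs of Foxo1 and 1 to 5 of Spib. In resting pre-B cells Pou2af1 had 327.1, 72.67, and 275.7 CPM in NZB (12, 2, and 7 UMIs) and 499.2 to 719.4 CPM in NZW (-1.44, SE 0.36, adjusted p = 0.036), against 1.06%. All 3 were lost with DESeq2 (-1.48, -1.65, and -1.44, adjusted p 0.0937, 0.22, and 0.0647) and with doubled marker minimums (-1.21, -1.44, and -0.89, adjusted p 0.174, 0.181, and 0.405). Pou2af1 was also lost with limits of 500 UMIs and 250 genes (-0.61, adjusted p = 0.076), and Foxo1 in pro-B cells that did not divide (-1.23, adjusted p = 0.364). Foxo1 was lost without NZB 3 or NZW 1 (adjusted p 0.057 and 0.465), Spib without NZB 2, NZB 3, NZW 1, or NZW 3 (0.084 to 0.463), and Pou2af1 without the same 4 mice (0.0558 to 0.161). In dividing pre-B cells, the best covered stage, 0 of the 10 members were called, against 1.55% of all genes. Those with the lowest unadjusted p were Ikzf3 (0.69, SE 0.28, adjusted p = 0.309) and Irf8 (0.48, SE 0.17, adjusted p = 0.199), both higher in NZB. Over the 7 stages and classes without a call, 0 of 25 member tests were called by edgeR and 0 by DESeq2, 3 had an unadjusted p under 0.05, and 5.38% of all genes were called. That pooled share was 9.42% in erythroid cells and 9.32% in granulocyte-monocyte precursors, which held 1 and 2 of the 25 member tests.

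Whether the strain difference itself changed between stages was tested with a stage-by-strain term over the 5 stages and 6174 genes. It was called for Ebf1 (F = 7.54, adjusted p = 1.01e-05), Irf8 (F = 6.24, adjusted p = 8.74e-05), and Spib (F = 3.75, adjusted p = 0.0305), 3 of 10 members against 1.49% of all genes. For Ebf1 the difference of NZB from NZW was -0.09 in pro-B, 0.16 in dividing pre-B, and -0.32 in resting pre-B, before -1.24 in immature B and -0.71 in mature B. Irf8 went from 0.04, 0.48, and 0.85 in the 3 early stages to -1.10 and -0.85 in the 2 late ones. Its 0.85 in resting pre-B rests on NZB 2, with 981.1 CPM against 218.1 and 315.0 CPM in the other NZB mice and 257.7 to 273.7 CPM in NZW, and was -0.14 without that mouse. Spib was lower in NZB in all 5 stages, with -1.65 in pro-B and -0.32 in dividing pre-B as the extremes. Bach2, whose differences were -0.13, -0.05, and -0.51 before -1.56 and -1.26, did not pass this test (F = 1.86, adjusted p = 0.798). The call of Spib was lost without any 1 of NZB 2, NZB 3, NZW 1, NZW 3, NZBWF1 2, and NZBWF1 3 (F 2.37 to 3.44, adjusted p 0.0505 to 0.445), and under several other settings. With limits of 500 UMIs and 250 genes the call of Ebf1 was lost (F = 1.96, adjusted p = 0.759), and with doubled marker minimums that of Irf8 (F = 2.78, adjusted p = 0.329).

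Outside the B lineage 6 calls were made between the parents, in plasmacytoid dendritic cells (2 of 5 members, against 8.24% of all genes), monocytes (3 of 6, against 20.3%), and neutrophils (1 of 5, against 12.0%). In plasmacytoid dendritic cells Foxo1 had 47.04, 30.07, and 29.44 CPM in NZB and 59.6, 99.4, and 90.21 CPM in NZW (-1.17, SE 0.28, adjusted p = 0.00222), and Bach2 21.09, 13.53, and 11.04 CPM against 55.01, 40.67, and 72.17 CPM (-1.80, SE 0.37, adjusted p = 2.33e-04). The Bach2 call was lost with limits of 2000 UMIs and 1000 genes (-2.05, adjusted p = 0.229), and Irf8 was not called (-0.10 on the log2 scale). In this gate several marker levels differed between the parents without overlap. Its division genes had 467.2 to 869.0 CPM in NZB and 1229 to 2508 CPM in NZW, its plasmacytoid markers 4574 to 5240 and 3228 to 3588 CPM, its conventional dendritic cell markers 491.5 to 529.2 and 632.7 to 816.4 CPM, and H2-Aa 1497 to 1593 and 581.9 to 948.9 CPM. Their part in the Foxo1 and Bach2 differences was not tested. Here too, a different make-up of the gate and a different level per cell cannot be told apart from these sums. In monocytes Irf8 had 337.3, 360.3, and 441.3 CPM in NZB and 516.5, 666.8, and 640.9 CPM in NZW (-0.68, SE 0.11, adjusted p = 2.63e-05). In this gate the neutrophil markers had 688.7 to 1121 CPM in NZB and 423.5 to 532.8 CPM in NZW, and the division genes 2448 to 4165 and 2001 to 2243 CPM, and their part in the 3 calls was not tested. Irf4 had 2, 0, and 1 UMIs in NZB monocytes and 14, 38, and 23 in NZW, a ratio of 18.2 in favour of NZW (95% exact interval of the counts 5.99 to 90.1, counting error only). Bach2 in monocytes (0, 2.252, and 6.078 CPM in NZB, 10.54, 11.87, and 10.4 CPM in NZW, -1.85, adjusted p = 0.0296) was lost without NZB 1, NZB 2, NZW 1, NZW 2, or NZW 3 (-1.89 to -1.53, adjusted p 0.0563 to 0.169) and with DESeq2 (-1.89, adjusted p = 0.0867). A Bach2 UMI was seen in 0.602% of thinned monocytes. In neutrophils Bach2 had 0, 4, and 0 UMIs in NZB and 18, 13, and 17 in NZW, a ratio of 11.4 (4.17 to 43.5). A Bach2 UMI was seen in 0.202% of thinned neutrophils. Neutrophils are the class that gave the background, so this share cannot tell expression from background. Free RNA moved with the Bach2 calls in all 3 classes, at 20.56 to 57.75 CPM of Bach2 in NZB and 76.4 to 158.6 CPM in NZW, and with the Foxo1 call in plasmacytoid dendritic cells, at 9.25 to 21.49 and 27.54 to 48.5 CPM. These calls remained when free RNA was subtracted at the estimated 12 to 17 UMIs per droplet. Only that amount was removed, and the part of free RNA in the calls was not tested beyond it.

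The F1 mice were compared with each parent and with their mean. Against NZB, 13 of the 79 member tests were called, all higher in NZBWF1 (3.01% of all genes), and against NZW 0 (1.12%, with 0 by DESeq2 and 6 at an unadjusted p under 0.05). These comparisons share the NZBWF1 mice, and the 13 calls against NZB were not followed over other settings. Of 9 members tested in immature B cells, 5 were among these calls, where 6.08% of all genes were called. In immature B cells NZBWF1 exceeded NZB in Ebf1 (1.14, SE 0.19, adjusted p = 5.02e-05), Bach2 (1.43, SE 0.33, adjusted p = 0.00399), Spib (0.98, SE 0.21, adjusted p = 0.00138), Pax5 (0.86, SE 0.24, adjusted p = 0.02), and Irf8 (0.76, SE 0.23, adjusted p = 0.0355), and its differences from NZW were -0.11, -0.13, -0.11, 0.43, and -0.34 in the same order. Against the mean of the parents 1 of the 79 tests was called, Pax5 in immature B cells (0.65, SE 0.18, adjusted p = 0.0497), where 1.66% of all genes were called, against 0.426% in the other stages and classes together. Pax5 had 1052, 681.6, and 659.7 CPM in NZBWF1, above all mice of both parents, which had 608.3, 330.0, and 251.1 CPM in NZB and 524.1, 600.8, and 594.3 CPM in NZW. The call was lost without NZB 2, NZB 3, any NZW mouse, NZBWF1 1, or NZBWF1 3 (0.43 to 0.78, adjusted p 0.058 to 0.403). It was also lost with free RNA subtracted (0.65, adjusted p = 0.0527), with the DESeq2 size factors (0.63, adjusted p = 0.0503), and with doubled marker minimums (0.64, adjusted p = 0.107). The same held in cells free of myeloid and erythroid markers (0.61, adjusted p = 0.0841) and with limits of 500 UMIs and 250 genes (0.37, adjusted p = 0.483).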

How the data were processed

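Femur bone marrow of 9 mice was profiled with the 10x Chromium 3′ v3.1 kit. Per the labels, the authors made UMI counts with Cell Ranger 3.1.0 after bcl2fastq 2.20 on mm10, and deposited them as 1 aggregated filtered count matrix of 68444 barcodes and 31053 genes. The sources used here do not name the annotation release, and 30934 identifiers were found in GENCODE vM21. The number at the end of a barcode was read as the line of the aggregation list, the convention of the tool. The 10 members, the gene lists, and the tests were chosen with earlier results of these data known, and the marker minimums of the gates after marker counts had been seen. No member is in a gate. The named genes were the members, the 3 genes most like each, and up to 6 called genes per list in order of p.

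Barcodes with under 1000 UMIs, under 500 genes, or over 10% mitochondrial UMIs were left out. No doublet caller was run, barcodes in several gates were left out, and leaving out barcodes over 10000 UMIs was an alternative. Counts were summed per gate and mouse over at least 10 cells. Sums were tested with the edgeR 4.0.16 quasi-likelihood test (TMM scaling, filterByExpr, R 4.3.3), with the mouse as a block between stages and between classes and no block between strains, and with DESeq2 1.42.0 as an alternative. The SE was computed from the log2 fold change and its F statistic, whose square root is their ratio. NZBWF1 was set against the parents with coefficients of 1 and -0.5 for each parent. Each mouse is a separate animal with 1 library, and no batch is named in the labels. Mouse depth was 8106539 to 18663189 UMIs in the cells kept. Counting intervals (95%, exact) and the floor of 3 UMIs cover counting error only.

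On simulated counts with 2-fold changes, the comparison of resting with dividing pre-B recovered 163 of 185 changed genes with 9 others called (5444 genes), the strain comparison in dividing pre-B 67 of 196 with 2 others (7738 genes), and that in resting pre-B 31 of 187 with 2 others (2541 genes). Alternatives were other scaling, filters, cell limits, marker minimums, and samples. Those that required Rag1 or Rag2, left out dividing pro-B cells, kept only B-lineage cells without myeloid or erythroid gate markers, or left out immunoglobulin genes were chosen after seeing the data. Promoters came from RefSeq tables of GRCm38.p6. Further tools were Python 3.11.15, numpy 2.4.6, scipy 1.17.1, pandas 2.3.3, and matplotlib 3.10.9.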

Additional observations from a re-analysis of the deposited data

Results flagged for a closer look

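For 3 members the difference between the strains itself differed between the B-lineage stages, in the edgeR test of the stage-by-strain term. Ebf1 had F = 7.54 (adjusted p = 1.01e-05), with NZB below NZW by a log2 fold change of -1.24 in immature B cells and at 0.16 in dividing pre-B cells. Its call was lost with limits of 500 UMIs and 250 genes (F = 1.96, adjusted p = 0.759). Irf8 had F = 6.24 (adjusted p = 8.74e-05), with NZB at 0.48 in dividing pre-B cells and -1.10 in immature B cells. Its call was lost with doubled marker minimums (F = 2.78, adjusted p = 0.329). Spib had F = 3.75 (adjusted p = 0.0305), with -0.32 and -1.09 in the same stages. Its call was lost in 12 of 20 other settings, among them those without any 1 of NZB 2, NZB 3, NZW 1, NZW 3, NZBWF1 2, and NZBWF1 3 (F 2.37 to 3.44).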

How the results depend on the processing

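The 13 calls of NZBWF1 against NZB were not followed over other settings. Of the 136 other member differences called, 0 changed sign and 16 lost their call when any 1 mouse was left out. Under the other settings 37 lost their call in at least 1, and 5 changed sign. In NZB alone, the step from resting pre-B to immature B was -0.47 for Irf8 and 0.57 for Pou2af1. With limits of 2000 UMIs and 1000 genes, the step of Pax5 into resting pre-B was -0.05 and that of Spib into immature B -0.23. With pro-B cells that did not divide, the step of Spib into dividing pre-B was -0.11. A difference that had not been called, that of Irf8 between the B lineage and granulocyte-monocyte precursors, became -0.60 (adjusted p = 0.0087) with doubled marker minimums. The 33 called stage tests were 17 in NZB alone and 20 with 2000 UMIs, and 30 to 38 without a mouse. The 82 class tests were 80 to 83 without a mouse. The 17 strain calls of 79 tests were 13 with DESeq2, 2 of only 28 tests with 2000 UMIs, and 11 to 19 without a mouse, 11 of them without NZB 3. The 3 stage-by-strain calls were 1 with 500 UMIs, 1 with doubled marker minimums, and 2 to 5 without a mouse, 5 of them without NZB 1. The term was not fitted with 2000 UMIs or DESeq2. Calls of NZBWF1 against the mean of the parents numbered 1 in the main setting, 3 with DESeq2 and with doubled marker minimums, and 0 with the DESeq2 size factors. They were 4 of 138 tests without a filter, 2 without immunoglobulin genes, 0 with 500 UMIs, and 0 of only 28 tests with 2000 UMIs. Without a mouse they were 0 to 6, and with 1 parent in place of the mean 13 against NZB and 0 against NZW. The main call, Pax5 in immature B cells, was not among those with doubled marker minimums (edgeR adjusted p = 0.107) or with free RNA subtracted (0.0527). Several of these settings leave fewer samples or cells, and the causes were not tested. Of 480 levels in the stages and plasma cells under other gates, 32 moved by over 1 SD. The DESeq2 size factors shifted the median of the members and list genes (59 between classes, 50 between stages) against TMM by -0.25 for T cells, 0.18 for granulocyte-monocyte precursors, -0.14 for NK cells, -0.12 for stem and early progenitor cells, 0.11 for erythroid cells, 0.15 from dividing to resting pre-B, and -0.11 from pro-B to dividing pre-B.

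The replicate numbers of the strains were not taken to pair the mice. Correlated deviations over 0.1 were seen in 10 of 27 same-numbered pairs (r from -0.13 to 0.64, 2000 genes). Deviations were taken from each strain's mean over 3 mice, so a low r in some pairs cannot decide whether numbers mark shared batches. In neutrophils the pairs of replicates 1 and 2 had r of 0.48 to 0.64 and those of replicate 3 -0.05 to 0.07. With the number as a replicate block, 19 tests were called between NZB and NZW and 2 between NZBWF1 and the mean of its parents. Without the mouse as a block, 32 stage tests and 83 class tests were called.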
